A study of Mus musculus with 4 samples.

Results

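The Bcl2 family survival and death genes were followed in cultured mouse epidermal keratinocytes by genotype of Casp8 and by culture passage. The 10 genes were Bcl2, Bcl2l1, Mcl1, Bax, Bak1, Bid, Bad, Bcl2l11, Bbc3 and Pmaip1. Every gene probe that the array files name for one of them was taken, whatever its values, which gave 19 of the 41174 gene probes on the arrays, and 10 of the 27962 names these carry. All 19 passed the filter on dim probes, which kept 35563 probes. On all 4 arrays, 18 of the 19 were well above background in both channels. Probe A_52_P348214 of Bcl2l11 was the exception and was above background in Cy3 on 3 arrays.

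Each array carried RNA of Casp-8F/–K5-Cre keratinocytes (F/-) in Cy3 and RNA of Casp-8F/+K5-Cre keratinocytes (F/+) in Cy5, with 2 arrays at passage 3 and 2 at passage 1. Both genotypes carried a loxP-flanked Casp8 allele and the Cre recombinase driven by the keratin 5 promoter, a promoter of the basal layer of the epidermis. The allele opposite the flanked one was null in F/- and wild type in F/+. Keratinocytes came from 2 mice of each genotype, labelled P3 for age, and the 8 RNAs were taken from the cells of these mice at both passages, so the arrays of a pair at passage 3 and passage 1 share animals. For both passage 3 arrays, the source name of the Cy5 RNA gives the first passage, whereas the title, description and passage entry give passage 3, and these were followed. If the source name were right, the passage 3 ratios would set F/- cells of passage 3 against F/+ cells of passage 1.

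Proteins of the Bcl2 family decide whether the outer mitochondrial membrane stays closed or is opened for release of cytochrome c, the step that starts the intrinsic route of apoptosis. Survival members hold the pore-forming members Bax and Bak in check, and the BH3-only members relieve that block or activate the pore formers. Caspase-8, the initiator protease of death receptors, meets this family through Bid, which it cleaves to an active fragment. In epidermis, the balance of these proteins bears on the life span of basal keratinocytes and on their removal after damage.

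The members with a probe that passed the test with passage in both genotypes were Bcl2l11 and Bid. The 250 bases before an annotated start of each are shown as the sequence context of these results. They are RefSeq sequences on GRCm38.p6, written 5′ to 3′ on the gene's strand. The Bcl2l11 region is chr2:128125788-128126037 on the plus strand, and the Bid region is chr6:120916825-120917074 on the minus strand. Capitals mark exact matches to the forkhead motif GTAAACA and the GC box GGGCGG.
Bcl2l11: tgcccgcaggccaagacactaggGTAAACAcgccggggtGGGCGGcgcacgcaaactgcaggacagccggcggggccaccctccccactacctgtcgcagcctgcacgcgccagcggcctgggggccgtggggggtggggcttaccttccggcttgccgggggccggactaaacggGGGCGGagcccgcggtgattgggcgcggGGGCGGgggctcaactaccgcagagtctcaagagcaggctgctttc
Bid: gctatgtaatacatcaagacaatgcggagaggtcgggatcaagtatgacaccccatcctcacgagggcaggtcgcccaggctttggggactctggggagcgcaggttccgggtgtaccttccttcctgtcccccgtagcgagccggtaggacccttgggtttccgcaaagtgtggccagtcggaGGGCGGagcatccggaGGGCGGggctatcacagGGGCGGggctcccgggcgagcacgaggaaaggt

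The Bcl2l11 region held 1 forkhead match, 227 bases before the start, and 3 GC boxes, and the Bid region held 3 GC boxes and 0 forkhead matches. Over 32851 promoter windows of the same length, 3.17% held the forkhead motif and 32.7% held a GC box. Further motifs searched on both strands were AP-1 (TGACTCA, in 4.46% of windows), the E-box (CACGTG, 6.02%), the cyclic AMP response element (TGACGTCA, 1.55%), Myb (CAACTG, 11.1%) and the E2F forms TTTGGCGC (0.417%) and TTTCGCGC (0.256%). Neither printed region held one of these, and the marked matches do not overlap. Among the 15 start windows of the 9 members scanned, the only other forkhead match lay in Bbc3, 167 bases before its second start. A match says only that these letters are in the window.

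Median raw probe signals were 101 to 139 in Cy3 and 166 to 253 in Cy5, and 75.8% to 85.4% of spots in Cy3 and 80.6% to 87.9% in Cy5 were well above background. No spot was saturated. All 4 arrays were read on 1 slide in 1 scan. No array had its dyes exchanged, so a dye effect adds to every genotype ratio and cannot be told apart from genotype, while it cancels between passages where it is equal on all arrays. For Casp8, the only probe gave log2 ratios of F/- over F/+ of 0.47 and -0.20 at passage 3 and 0.42 and 0.18 at passage 1, but the place of this probe relative to the deleted part is not known, so it does not check the labels. All 16 probes of 8 basal keratinocyte genes were above background in both channels on every array, so the defining markers of the labelled cell type were present. The same held for 7 of 9 melanocyte, 13 of 19 leukocyte, 13 of 17 fibroblast and 4 of 11 endothelial probes. The cultures were not sorted.

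Among the survival members, a probe of Bcl2l1 was higher in F/- cells, and the probes of Bcl2 and Mcl1 stayed close to 0. Bcl2l1 encodes Bcl-xL, which binds and holds Bax, Bak and BH3-only proteins. The ratios below are log2 of F/- over F/+ after loess normalization. Probe A_52_P510877 of Bcl2l1 gave 1.09 and 0.59 at passage 3 and 0.86 and 0.99 at passage 1. It was thus higher in F/- cells on all 4 arrays, with no ratio near 0. Its mean was 0.88 ± 0.22 (SD, n = 4 arrays), a 1.84-fold ratio with a 95% interval of 0.63 to 1.14 on the log2 scale and an adjusted p of 0.0258 in the limma fit. This was the only one of the 19 probes called for the mean of both passages, where 8.84% of all probes were called and 5.85% were called higher in F/-. At an unadjusted p under 0.05 there were 5 member probes, against 29.4% of all probes.

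The other probes of Bcl2l1 did not share that value. A_51_P299454 gave 0.47 and 0.21 at passage 3 and -0.02 and 0.18 at passage 1, and its mean of 0.21 was not called (adjusted p = 0.145). A_52_P148861, which is spotted 10 times on each array, gave -0.13 and 0.14 at passage 3 and -0.36 and -0.084 at passage 1, negative on 3 of 4 arrays. Its mean was -0.11 (adjusted p = 0.432). The gap between the highest and lowest probe of Bcl2l1 was 0.99, larger than in 98.8% of the 7872 genes with several probes kept, whose median gap was 0.20. Those genes were not matched for number of probes, and a gap over more probes tends to be wider. The array annotation gives the same RefSeq transcript for every Bcl2l1 probe. Which transcripts each probe reads was not tested.

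The call on A_52_P510877 was lost in 3 of the 4 fits that left out an array, as was every other call for the mean genotype ratio. Each such fit leaves a single array at one of the passages. Without the array of passage 1 pair 1 it was 0.91 (adjusted p = 0.147), without that of passage 1 pair 2 it was 0.85 (0.0886), and without that of passage 3 pair 1 it was 0.76 (0.0684). Without the array of passage 3 pair 2 it was 1.01 (0.0214) and stayed called. With the arrays of each pair averaged first, since they share animals, it was 0.88 (adjusted p = 0.0509) and no probe on the array was called.

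Bcl2, the founding survival member, had 3 probes, and none was called. Their means were -0.19 ± 0.22 (SD, n = 4) on A_52_P534870, -0.034 on A_52_P438280 and 0.03 ± 0.29 (SD, n = 4) on A_51_P380013. A_52_P534870, the probe spotted 10 times, gave -0.42 and -0.15 at passage 3 and -0.27 and 0.097 at passage 1. Of these ratios, 3 are below 0, and they span more than their mean. The SD between its repeated spots within an array was 0.021 to 0.05. Mcl1, a short-lived survival protein needed by many cell types, read -0.08 and 0.09 at passage 3 and -0.21 and 0.04 at passage 1 on A_52_P93933. A_51_P238786 had a mean of -0.058 (95% interval -0.22 to 0.098). With median centring in place of loess, the means of both probes were further from 0, at -0.37 and -0.46, without a call.

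The pore-forming members Bax and Bak1 gave no called difference between genotypes. Bax had ratios of -0.50 and 0.16 at passage 3 and 0.15 and 0.056 at passage 1. The array of passage 3 pair 1 stood apart from the others, and the mean was -0.035 ± 0.32 (SD, n = 4). Bak1 A_51_P395011 gave 0.51 and 0.24 at passage 3 and 0.42 and 0.24 at passage 1, above 0 on every array. Its mean of 0.36 (95% interval 0.17 to 0.55) had an adjusted p of 0.0529, against 0.0459 with pair number as a block, while with median centring the mean was 0.10 (adjusted p = 0.435). Bak1 A_52_P225207 read the other way on every array, at -0.17 and -0.20 at passage 3 and -0.20 and -0.15 at passage 1. Its mean was -0.18 ± 0.024 (SD, n = 4; adjusted p = 0.0954), so the 2 probes of Bak1 disagree in sign. Both are annotated to the same RefSeq transcript.

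None of the BH3-only members was called between genotypes. Bbc3, which encodes Puma and is a p53 target, gave 0.11 and 0.24 at passage 3 and 0.34 and 0.25 at passage 1. All 4 ratios were positive and their mean was 0.23 (95% interval 0.087 to 0.38; adjusted p = 0.0711), but with median centring in place of loess it was -0.047. Bid gave 0.14 and 0.05 at passage 3 and -0.05 and 0.30 at passage 1, with a mean of 0.11 ± 0.15 (SD, n = 4; adjusted p = 0.417). These ratios lie on both sides of 0, and the mean was -0.11 with median centring. Bad, a BH3-only protein controlled by growth factor signalling, had means of 0.14 on A_52_P614762 (adjusted p = 0.193) and 0.13 on A_51_P419364 (0.19). For Bcl2l11, which encodes Bim, the means were -0.10 on A_52_P158527, -0.06 on A_52_P348214 and 0.0031 on A_51_P484880.

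Pmaip1, which encodes Noxa, an inhibitor of Mcl1, was the member whose genotype ratio differed most between passages. It gave 0.21 and 0.05 at passage 3 and -0.66 and -0.13 at passage 1, so the arrays of the passages lay on opposite sides of 0. The mean at passage 1 was -0.40 (adjusted p = 0.224). The difference of passage 3 minus passage 1 was 0.52 (95% interval -0.003 to 1.05, unadjusted p = 0.0509, adjusted p = 0.86 in the limma fit) and did not pass the test. With median centring, which moved the median of all probes by less than 0.1, both passages read below 0, at -0.45 and -0.89. Bcl2 A_52_P438280 was the other probe on opposite sides of 0 at the passages, with -0.14 and -0.11 at passage 3 and 0.03 and 0.08 at passage 1. Over all probes, 7.82% had that pattern, against 2 of the 19 here.

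**Figure D1:**
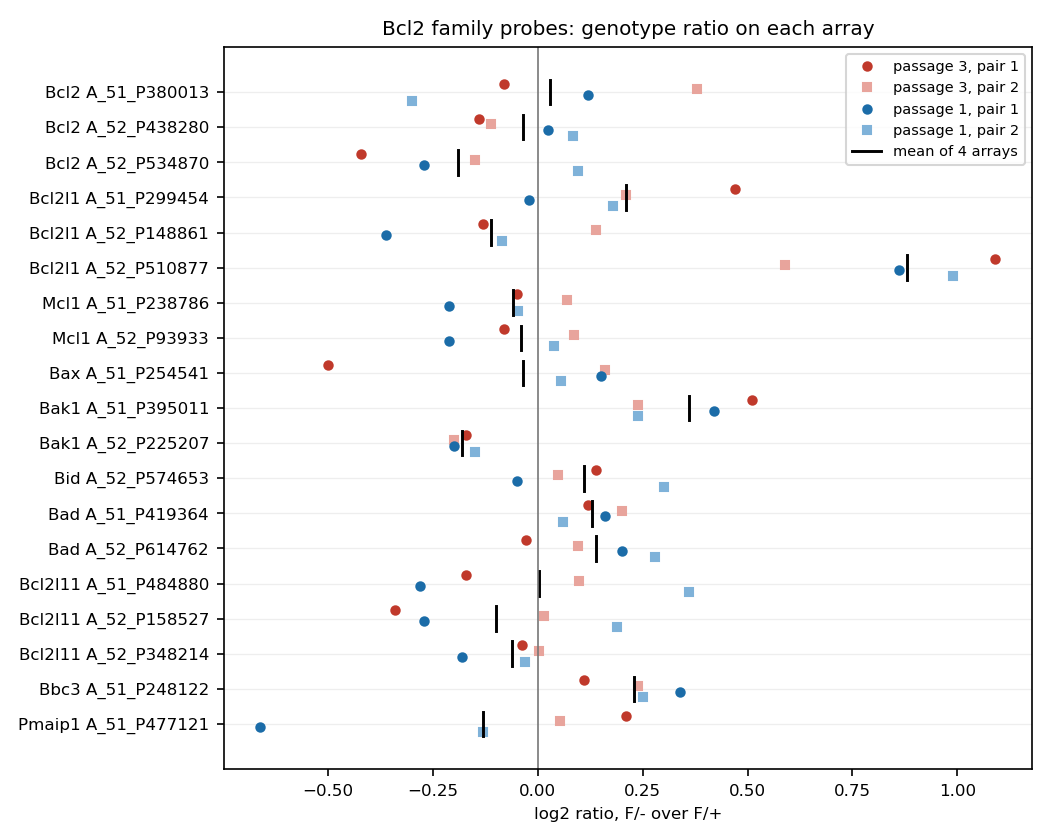
The log2 ratio of F/- over F/+ (x axis) is plotted for each of the 19 probes (y axis), with red points for the 2 arrays of passage 3, blue points for the 2 arrays of passage 1 and a black line for the mean of the 4 arrays. Bcl2l1 A_52_P510877 lies between 0.59 and 1.09, and the means of the other 18 probes lie within 0.4 of 0.

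By passage, no member was called between genotypes, and neither was any other probe. At passage 3, 3 of the 19 had an unadjusted p under 0.05 in limma, where 20.0% of all probes did. At passage 1 the count was 5 of 19 against 20.6%. For the difference between passages, 0 of the 19 had an unadjusted p under 0.05, against 5.83% of all probes, and 0% were called. On all 4 arrays 4 of the 19 were higher in F/- (19.0% of all probes) and 1 was lower (19.9%). The median absolute ratio of the members was 0.11, the same as over all probes.

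With passage, a probe of Bcl2l11 and the probe of Bid were higher at passage 3 in both genotypes. The values that follow are log2 signals of single channels after loess and Aquantile normalization, which can be compared between RNAs for one probe. The change in F/+ cells takes the Cy5 RNA of the passage 3 arrays as passage 3, against its source name. Bcl2l11 encodes Bim, a BH3-only protein induced on loss of growth factors or attachment. In F/- cells, probe A_52_P158527 of Bcl2l11 read 10.90 and 11.22 at passage 3, against 9.47 and 9.47 at passage 1. In F/+ cells it read 11.24 and 11.20 at passage 3, against 9.74 and 9.28 at passage 1. The passages did not overlap in either genotype, and the genotypes overlapped at each passage. Of all probes, 21.0% had both passage 3 RNAs above both passage 1 RNAs in each genotype. The change of passage 3 over passage 1 was 1.59 in F/- cells (95% interval 0.98 to 2.19, 3.01-fold, adjusted p = 0.0176) and 1.71 in F/+ cells (1.10 to 2.31, 3.27-fold, adjusted p = 0.0120) in the separate-channel limma fit.

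Bid, the substrate that links caspase-8 to mitochondria, read 12.25 and 12.10 at passage 3 in F/- cells, against 11.19 and 11.26 at passage 1. The F/+ cells read 12.12 and 12.05 at passage 3, against 11.24 and 10.96 at passage 1. Every RNA of passage 3 was above every RNA of passage 1. Within each genotype taken alone, 21.0% of all probes had that order in both. The change was 0.95 in F/- cells (95% interval 0.51 to 1.39, 1.93-fold, adjusted p = 0.0346) and 0.98 in F/+ cells (0.54 to 1.42, 1.98-fold, adjusted p = 0.0288). The genotype ratio of Bid differed between passages by -0.031 (95% interval -0.43 to 0.37), and that of Bcl2l11 A_52_P158527 by -0.12 (-0.68 to 0.44), and neither difference passed the test.

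Those 2 probes were the only members called with passage, in each genotype, where 5.11% of all probes were called in F/- cells (2.89% higher at passage 3) and 5.66% in F/+ cells (3.23% higher). With pair number as a block, Bid had an adjusted p of 0.0610 in F/- and 0.0530 in F/+ cells, and it lost the call in both genotypes when any single array was left out, with changes of 0.87 to 1.02 in F/- (adjusted p = 0.0685 to 0.18) and 0.85 to 1.12 in F/+ cells (0.0528 to 0.189). Bcl2l11 lost its call without passage 1 pair 1 (1.60 in F/- and 1.94 in F/+ cells) and without passage 1 pair 2 (1.60 and 1.49). In these 2 fits most calls over all probes were lost as well.

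The result for Bcl2l11 belongs to 1 of its 3 probes. In F/- cells A_51_P484880 read 7.47 and 7.54 at passage 3, against 7.79 and 8.07 at passage 1. The F/+ cells read 7.64 and 7.44 at passage 3, against 8.07 and 7.71 at passage 1. It therefore read lower at passage 3 in both genotypes, by -0.43 (adjusted p = 0.439) and -0.35 (0.52). The passages did not overlap in either genotype, as for 18.8% of all probes in this direction. A_52_P348214 gave 0.024 in F/- and -0.064 in F/+ cells, and it is the probe that was not above background on 1 array in Cy3. The gap between the highest and lowest probe was 2.02 in F/- and 2.06 in F/+ cells, larger than in 98.7% and 98.8% of the 7823 genes with several probes. Again, those genes were not matched for number of probes. The array annotation gives the same RefSeq transcript for A_52_P158527 and A_51_P484880. No probe sequence was used here, so the transcripts behind the 3 probes were not tested.

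**Figure D2:**
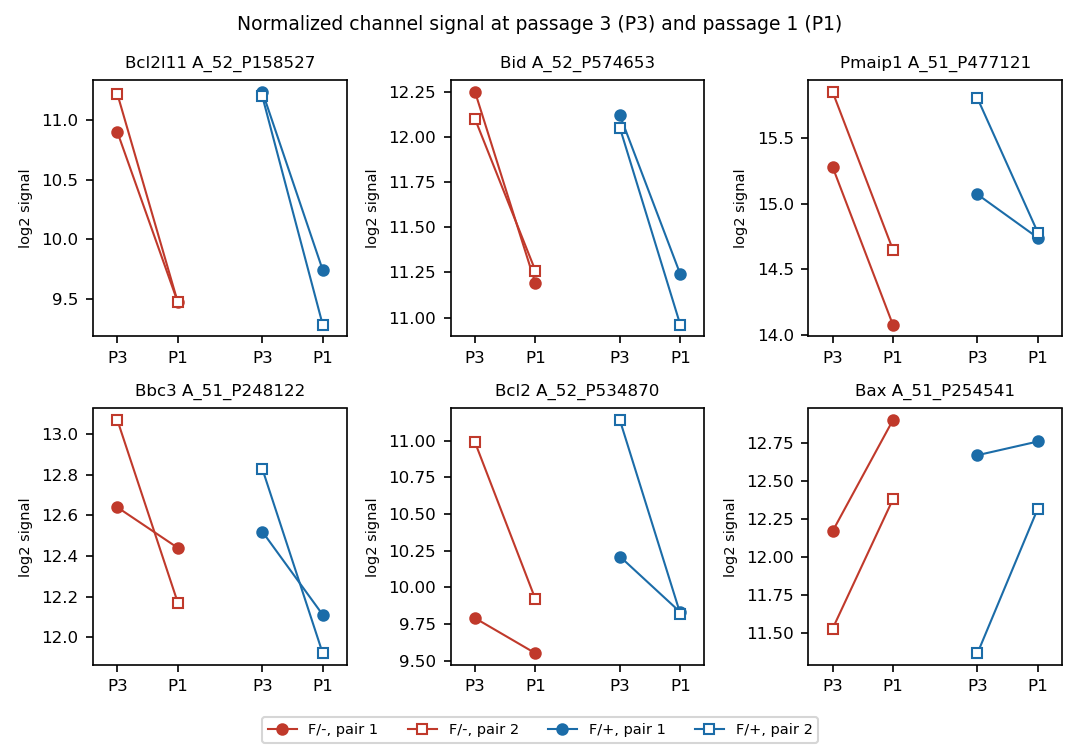
Normalized log2 signal (y axes, one scale for each panel) is plotted for 6 member probes at passage 3 (P3) and passage 1 (P1), with F/- cells in red to the left of F/+ cells in blue, and lines joining the RNAs of a pair. Bcl2l11 A_52_P158527, Bid, Pmaip1 and Bbc3 have both passage 3 RNAs above both passage 1 RNAs in each genotype, as do 21.0% of all probes.

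Further members read higher at passage 3 without passing the test. Pmaip1 read 15.28 and 15.85 at passage 3 in F/- cells, against 14.08 and 14.65 at passage 1. Signals in F/+ cells were 15.07 and 15.80 at passage 3, against 14.74 and 14.78 at passage 1. The passages did not overlap in either genotype, as for 21.0% of all probes in this direction. Within pairs the difference was 1.20 in both pairs of F/- cells, and 0.33 and 1.01 in those of F/+ cells. The change was 1.20 in F/- (adjusted p = 0.0771) and 0.67 in F/+ cells (0.268). With single arrays left out, the change was 0.91 to 1.51 in F/- and 0.32 to 1.06 in F/+ cells. The highest value in each genotype came without the array of passage 3 pair 1.

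Bbc3 read 12.64 and 13.07 at passage 3 in F/- cells, against 12.44 and 12.17 at passage 1. In F/+ cells it read 12.52 and 12.83 at passage 3, against 12.11 and 11.92 at passage 1. Its change was 0.55 in F/- (adjusted p = 0.154) and 0.66 in F/+ cells (0.094). With single arrays left out, it was 0.33 to 0.77 in F/- and 0.51 to 0.82 in F/+ cells, again highest without the array of passage 3 pair 1. Bak1 A_51_P395011 gave 0.50 in F/- and 0.45 in F/+ cells (adjusted p = 0.167 and 0.202), whereas Bak1 A_52_P225207 gave -0.071 and -0.062.

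The values of Bax and Bcl2 moved when either passage 3 array was left out. Bax read 12.17 and 11.53 at passage 3 in F/- cells, against 12.90 and 12.38 at passage 1. In F/+ cells it read 12.67 and 11.37 at passage 3, against 12.76 and 12.32 at passage 1. Bax is the member whose passage 3 signals were lowest against its passage 1 signals, at -0.79 in F/- (adjusted p = 0.325) and -0.52 in F/+ cells (0.502). Without the array of passage 3 pair 1 these were -1.11 (adjusted p = 0.0456) and -1.18 (0.0298), and without that of passage 3 pair 2 they were -0.47 (0.377) and 0.13 (0.821). For Bcl2 A_52_P534870, pair 2 read 10.99 in F/- and 11.14 in F/+ cells at passage 3, far above pair 1 at 9.79 and 10.21. At passage 1 it read 9.55 and 9.92 in F/- and 9.83 and 9.82 in F/+ cells. The change was 0.66 and 0.85 (adjusted p = 0.361 and 0.24), against 1.25 and 1.32 without the array of passage 3 pair 1 (adjusted p = 0.0352 and 0.0222) and 0.056 and 0.39 without that of passage 3 pair 2 (0.927 and 0.486). The other probes of Bcl2 read the other way, with changes of -0.10 in F/- and -0.35 in F/+ cells on A_51_P380013, and of -0.31 and -0.13 on A_52_P438280, none called. The gap between the highest and lowest probe of Bcl2 was 0.96 in F/- and 1.20 in F/+ cells.

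The remaining survival and sensitizer probes lay nearer to 0. Mcl1 had changes of 0.26 and 0.25 in F/- and 0.13 and 0.16 in F/+ cells on its 2 probes, none called. On A_52_P93933 these were 0.72 (adjusted p = 0.097) and 0.55 (0.163) without the array of passage 3 pair 1, and -0.22 in both genotypes without that of passage 3 pair 2. The 3 probes of Bcl2l1 gave 0.03 to 0.41 in F/- and -0.19 to 0.49 in F/+ cells. Those of Bad gave -0.34 and 0.15 in F/- and -0.13 and 0.10 in F/+ cells. None of these ranges held a called value.

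**Figure D3:**
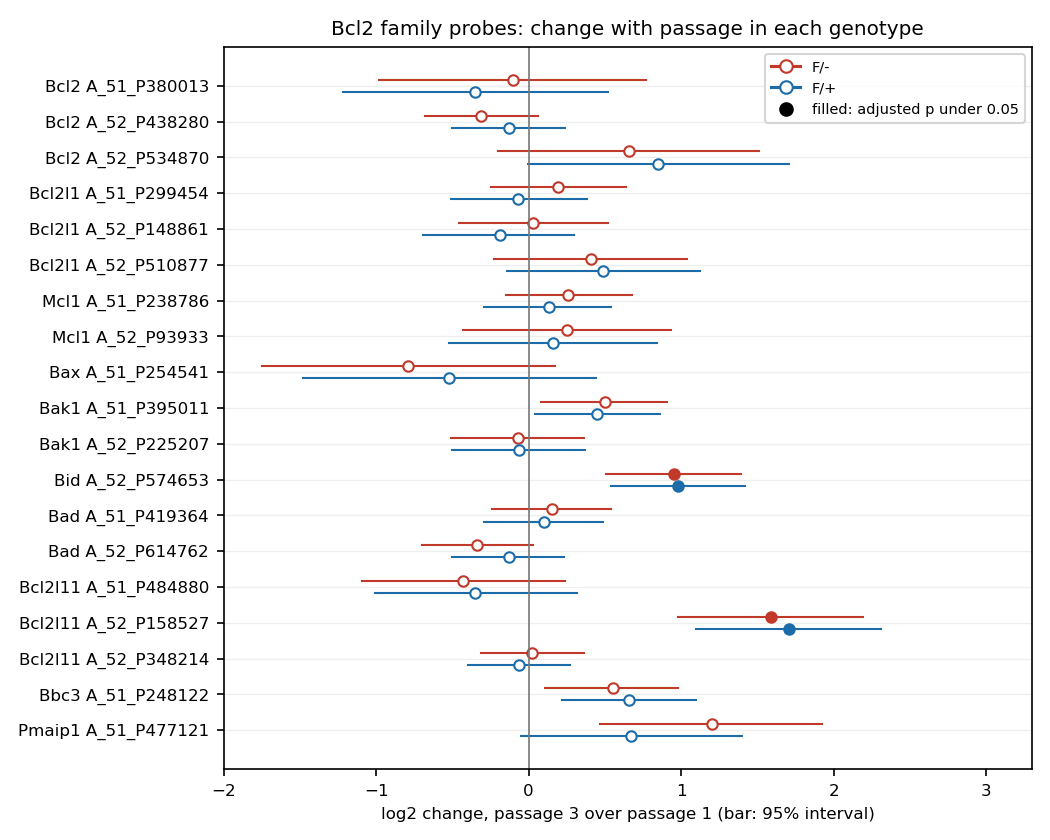
The log2 change of passage 3 over passage 1 (x axis) is plotted for the 19 probes (y axis) in F/- cells (red, upper) and F/+ cells (blue, lower), with 95% intervals as bars and filled points for an adjusted p under 0.05. Only Bcl2l11 A_52_P158527 and Bid have filled points, and the intervals of the genotypes overlap for every probe.

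Counted over the members, both passage 3 RNAs were above both passage 1 RNAs for 5 of 19 probes in F/- cells (29.2% of all probes), 7 in F/+ cells (27.2%) and 5 in both (21.0%). They were below for 4 in F/- (27.5%), 1 in F/+ (24.7%) and 1 in both (18.8%). The 5 above in both were Bcl2l11 A_52_P158527, Bid, Pmaip1, Bbc3 and Bak1 A_51_P395011. The 1 below in both was Bcl2l11 A_51_P484880. The genotypes share arrays, so these counts are not independent. The median change was 0.19 in F/- and 0.10 in F/+ cells, beside 0.011 and 0.02 over all probes, and the median absolute change was 0.34 and 0.35, beside 0.24 and 0.25.

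The other Bcl2 relatives were taken as a list of 15 genes, of which 12 were measured by 17 probes. For the mean genotype ratio, 2 of the 17 were called higher in F/- and 0 lower, where 8.84% of all probes were called. Bcl2a1b, a survival member abundant in leukocytes, was 1.17 higher (adjusted p = 0.0447), with 1.82 and 0.97 at passage 3 and 1.43 and 0.44 at passage 1. Its copies on the genome are nearly identical, so the probe may read several of them. Bcl2l2, which encodes the survival protein Bcl-w, was 0.36 higher on A_51_P331318 (adjusted p = 0.0485) and -0.16 on A_52_P44 (0.561). The lowest ratios in the list were those of Bmf (-0.36, adjusted p = 0.358) and Bnip3 (-0.24, 0.497), neither called. With median centring Bcl2l2 was 0.13 (adjusted p = 0.449) and lost its call. With passage, 0 of 17 were called in F/- cells. In F/+ cells Bcl2l12 rose by 1.09 (adjusted p = 0.0320) and Bcl2a1b fell by 2.20 (0.0491), against 0.86 (0.0726) and -1.74 (0.102) in F/- cells.

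Beside the value of Bcl2a1b stand those of leukocyte markers. Their 16 kept probes had a median ratio of F/- over F/+ of 0.26 and 0.074 at passage 3 and 0.42 and 0.035 at passage 1. Csf1r, Lyz2 and Pf4 were called higher in F/-, 3 of the 16, where 5.85% of all probes were called higher. For Ptprc, 1 further probe was never above background. The median change of the list with passage was -0.61 in F/- and -0.58 in F/+ cells. Their part in the Bcl2a1b result was not tested.

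Downstream of the family lie the caspases and mitochondrial proteins that carry out or curb apoptosis, a list of 21 genes and 41 probes. For the mean genotype ratio 3 of the 41 probes were called higher in F/- and 1 lower, a share near the 8.84% of all probes. They included a probe of the flavoprotein Aifm1 (0.58, adjusted p = 0.0278, against -0.19 on its other probe), the effector caspase Casp6 (0.40, 0.0302) and the mitochondrial channel Vdac2 (-0.35, 0.0351). Lower still, but not called, were Birc5, a mitotic regulator (-0.62, 0.0508), and Vdac1 (-0.47, 0.0976). With median centring, 0 of the 41 were called higher and 9 lower, with Casp6 at 0.078. That setting called 3967 of all probes, only 917 of them higher in F/-. With passage Casp6 rose by 1.11 in F/- (adjusted p = 0.0162) and by 1.39 in F/+ cells (0.00601), and in F/+ cells the protease Htra2 (0.79, 0.0449) was also called, against 0.47 (0.186) in F/- cells.

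Genes that regulate the family's transcription were a list of 16 genes and 31 probes, of which 9 were called higher in F/- and 0 lower, where 5.85% of all probes were called higher. With the arrays of a pair averaged, 0 of the 31 were called, and neither was any other probe. The calls were also lost in 3 of the 4 fits that left out an array, again together with those of all other probes. The 9 probes called higher were those of the stress factors Atf4 (0.64, adjusted p = 0.0258) and Ddit3 (0.54, 0.0408), the cell cycle factor E2f1 (0.66, 0.0261), the p53 antagonist Mdm2 (0.54, 0.0257, and 0.45, 0.0358), Foxo1 (0.40, 0.0298, and 0.29, 0.0426), Rela (0.58, 0.0269) and Trp63 (0.54, 0.0463). At the low end, Stat3 was -0.47 (0.0702) and Nfkb1 -0.21 (0.128). Trp63 is also among the basal keratinocyte markers. The list's median ratio was 0.16, and 20 of its 31 probes were above 0, while with median centring 5 were called higher, 1 lower and 16 were above 0. With passage, 0 of 31 were called in either genotype, where the list's median was -0.34 in F/- and -0.28 in F/+ cells.

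Genes whose products modify or bind the family's proteins were a list of 11 genes and 28 probes. For the mean genotype ratio, 2 of the 28 were called higher in F/- and 1 lower, where 8.84% of all probes were called. The scaffold protein Ywhaz (0.61, adjusted p = 0.0286) and the kinase Pim1 (0.54, 0.0351) were called higher in F/-, and 1 of 6 probes of the ubiquitin ligase Huwe1 (-0.29, 0.0435) was called lower, while 4 of the 6 were above 0. Fbxw7, a ubiquitin ligase subunit, was lowest at -0.58 without a call (0.0913). With median centring 0 were called higher and 4 lower, where 3967 of all probes were called, only 917 of them higher in F/-. With passage, Pim1 fell by 1.78 in F/- (adjusted p = 0.0136) and by 1.39 in F/+ cells (0.0298), the only call in the list.

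Of all members, Bcl2l11 A_52_P158527 varied most over the 8 RNAs, with an SD of 0.896 on the log2 scale. The named genes whose centred values lay nearest to it over the 8 RNAs included Vamp5 (root mean square difference 0.111), Bves (0.134), Plekhb1 (0.146) and Tmem140 (0.146). Vamp5, for example, read 11.12 and 11.17 at passage 3 in F/- cells, against 9.54 and 9.41 at passage 1. Signals in F/+ cells were 11.32 and 11.40 at passage 3, against 9.69 and 9.21 at passage 1. These genes were picked for their likeness, and the 8 RNAs share arrays and animals.

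Cell type markers differed between passages beside the changes of Bcl2l11 A_52_P158527 and Bid. The median log2 signal of 11 probes for suprabasal keratinocyte genes was 7.74 and 7.67 in F/- and 8.61 and 7.80 in F/+ cells at passage 3, against 10.95 and 10.32 in F/- and 11.20 and 10.82 in F/+ cells at passage 1. Of those 11, 5 were called lower at passage 3 in F/- cells (Krtdap, Lor and Sbsn) and 6 in F/+ cells (also Flg). Over all probes, 5.11% were called with passage in F/- and 5.66% in F/+ cells. Melanocyte markers had a median change of -1.06 and -1.25 with passage. Fibroblast markers had a median change of 0.14 in F/- and -0.0025 in F/+ cells, and 1 of their probes, for Dcn, was never above background. The medians were -0.50 and -0.046 for proliferation genes, -0.27 and -0.21 for endothelial genes and -0.45 and -0.16 for basal keratinocyte genes. The part of these markers in the Bcl2l11 and Bid results was not tested, and in bulk RNA fewer cells of a type and less RNA per cell cannot be told apart.

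Markers also differed between genotypes beside the Bcl2l1 value. For the mean of both passages, 8.84% of all probes were called, 2081 higher in F/- and 1064 lower. Of 16 basal keratinocyte probes, 5 were called lower in F/- (Krt14 -0.66, Krt5 -0.60, Col17a1 -0.58, Itga6 -0.50 and Krt15 -0.45) and 1 higher (Trp63 0.54). Each of these calls rests on a single probe. The other probes of Itga6 gave 0.50 and 0.29, that of Col17a1 -0.017, and those of Trp63 0.16 and 0.044, none called. The median ratio of all 16 probes was 0.046 and -0.17 at passage 3 and 0.27 and 0.015 at passage 1. Suprabasal genes had a median ratio of F/- over F/+ of -0.36 and -0.067 at passage 3 and -0.26 and -0.50 at passage 1, and 4 of 11 probes were called lower in F/-. Fibroblast markers had 0.47 and 0.30 at passage 3 and 0.084 and 0.022 at passage 1, with none called. Proliferation genes had -0.41 and -0.50 at passage 3 and -0.14 and -0.066 at passage 1, with 4 of 11 called lower. Melanocyte markers had 0.082 and 0.13 at passage 3 and 0.072 and 0.013 at passage 1. Endothelial markers had medians between -0.058 and -0.0025, and 2 of their probes, for Cdh5 and Pecam1, were never above background. With the arrays of a pair averaged, no marker probe was called, and neither was any other probe. The part of the markers in the Bcl2l1 value was not tested.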

How the data were processed

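Total RNA was amplified to labelled cRNA and hybridized to 2-colour Agilent arrays, per the labels' protocols, and per the submitters' processing notes Agilent Feature Extraction (version 9.1.3.1) read the scans. The deposited scanner files hold an intensity per spot and channel. The deposited log10 ratios of the value table equal the scanner's log10 ratios with the sign turned, within 4.96e-06, and the scanner's ratios were used as an alternative only. Mean intensities were background-corrected (normexp, offset 50) and loess-normalized within arrays, and spots of a probe were averaged, with limma 3.58.1 in R 4.3.3. Probes had to exceed background clearly on 2 or more arrays, in either channel, and to be missing on at most 1. Genotype was tested by moderated tests over 35563 probes and all 4 arrays (2 residual degrees of freedom, prior 2.81), and passage by a separate-channel fit over 35464 probes (loess, Aquantile, correlation within spots 0.741). This correlation was reused where an array was left out or the pair was blocked. Called means a Benjamini-Hochberg adjusted p under 0.05 over all probes tested.

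Arrays with the same pair number hold the same animals, per the series' design text and titles. For the genotype ratios, deviations of paired arrays from their group means had a correlation of -0.000493. An effect shared by both channels of an array cancels in these ratios, so this value does not cover the passage fit. P-values measure the spread between arrays within each passage, over 4 arrays of 2 mice per genotype. The same mice recur at both passages, so the number of mice as well as of arrays limits the precision. The main fits did not model this pairing. The fits were tested on simulated data with independent arrays. Of 200 planted changes, 187 were recovered for the mean genotype ratio and 175 for passage in F/- cells. For the difference between passages only 79 of 200 were recovered, so a missing call there says less than in the other fits. Every planted change was larger than the mean genotype ratio of any member probe. Recovery of changes of the members' size was not tested, so a missing call does not exclude them.

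The members, the lists and the tests were chosen with earlier results of these data known. From other lists the called genes and the 2 highest and 2 lowest mean genotype ratios are named, except for items that are not reported here. The counts of these lists under median centring were added after their values were seen. The motifs and the 2 printed promoters were chosen after the members' values were seen. Of the 19 accessions given for the member probes, 16 matched the RefSeq gene table. Promoters came from RefSeq on GRCm38.p6. Pmaip1 was not scanned.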

Additional observations from a re-analysis of the deposited data

Results flagged for a closer look

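Bax A_51_P254541 had 1 array far from the others. Its ratio of F/- over F/+ was -0.50 for passage 3 pair 1, and the gap from this array to the nearest of the others was 0.84 of the whole range; this is above Dixon's 95% critical value for 4 values. The other ratios were 0.16 for passage 3 pair 2 and 0.15 and 0.056 at passage 1. Of the 19 member probes tested in this way, 1 was singled out, and chance does so for about 1 group in 20.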

How the results depend on the processing

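Of 1191 values of member probes under alternative settings, 1092 kept their direction and side of the threshold or moved by less than the replicate SD, 70 moved by more, 20 lost a call, 9 gained one and 0 called values reversed. Among them, 83 values that were not called changed sign. Most of the 1191 belong to results that were not called. The 20 lost calls all fell on the called results, those of Bcl2l1 A_52_P510877, Bid and Bcl2l11 A_52_P158527. The number of probes called for the mean genotype ratio was 3145 (2081 higher in F/-), against 1933 with the scanner's ratios, 0 with the arrays of a pair averaged (9935 with an unadjusted p under 0.05), and 0 to 3966 with single arrays left out. With median centring it was 3967, of which only 917 were higher in F/-, and the members' median was -0.11 with 6 of 19 above 0, against -0.034 and 9 of 19. At passage 1 alone, normexp with offset 0 called 69 probes, against 0. Leaving out single arrays gave 107 to 3118 called probes with passage in F/- cells and 187 to 4566 in F/+ cells, against 1812 and 2006; an arm left with 1 sample is assumed to vary like the other groups. With pair number as a replicate block the counts were 3242 for the mean genotype ratio, 1218 for passage in F/- and 1435 in F/+ cells. The block ended the call of Bid in both genotypes and gave Bak1 A_51_P395011 one, and it changed no other member call. That Bak1 probe was also called without passage 3 pair 2 (0.42, adjusted p = 0.0457) and among probes above background in both channels on all arrays (adjusted p = 0.05 after rounding), but was 0.10 with median centring (adjusted p = 0.435). Bid was not called with offset 0 (adjusted p = 0.066 in F/- and 0.0556 in F/+ cells). The cause of these differences was not tested. Dim probes such as Bcl2l11 A_52_P348214 are limited by their signal over background.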
